A study of Mus musculus with 2 samples.

Results

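The cytosolic ribosomal protein genes were placed on a map of chromatin loops and contact domains made by Hi-C, an assay that counts ligation products between DNA fragments lying close together in the nucleus. The genes were taken by name from RefSeq's annotation of GRCm38.p6 (mm10): protein-coding genes whose symbol starts with Rpl, Rplp or Rps followed by a digit, without pseudogenes and without the Rps6k kinase genes. This gave 88 of 21521 protein-coding genes on the autosomes and the X chromosome, with 54 named for the large subunit and 34 for the small subunit. Of these, 76 are the core genes of the ribosome and 12 are paralogues or other genes that the name rule also takes in. The 12 are Rpl22l1, Rpl37rt, Rpl32l, Rpl10l, Rpl36al, Rpl39l, Rpl3l and Rpl7l1 among the large subunit names, and Rps23rg1, Rps27l, Rps27rt and Rps19bp1 among the small subunit names. Rps19bp1 encodes a binding partner of Rps19 and not a ribosomal protein, so the name rule is slightly wider than the family.

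The cells were HPC5, a line of mouse blood progenitors of bone marrow origin, with the genotype Etv6+/+. Both samples carry this genotype, the labels list no treatment, and they form 1 group of 2 replicates, so there is no mutant or treated group. The labels do not say whether the replicates came from separate cultures. All values come from 1 cell line, and no RNA was measured here, so the markers of the cell type and the expression of the genes could not be checked.

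Each ribosome is built from a large subunit, which joins amino acids, and a small subunit, which reads the messenger RNA. Their proteins are encoded by single genes scattered over the chromosomes, which are active in every growing cell and are produced in matched amounts. Blood formation is sensitive to this balance: in humans, loss of a single copy of any of several ribosomal protein genes causes Diamond-Blackfan anaemia, a failure of red cell production. Etv6 encodes a repressor of the ETS family, whose members bind DNA around a GGAA core.

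The authors' lists of loops and domains were deposited separately per replicate. A loop is a pair of anchors, bins 5, 10 or 25 kb wide, that were called as being in contact more than their surroundings. The medium-setting lists held 1276 loops in replicate 1 and 5729 in replicate 2, and the domain lists held 3 and 339 domains. The depth behind the lists is unknown. A gene with its left or right end in an anchor was placed at that anchor. A gene was counted as lying inside a loop when the whole gene lay between the midpoints of both anchors. A loop was called shared when both anchor midpoints fell within 20 kb of a loop's midpoints in the other list. Ranges in parentheses after shares are 95% Wilson intervals. They cover counting error only and take genes as independent, although neighbours share anchors.

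Ribosomal protein genes lay at loop anchors slightly more often than protein-coding genes in general, and lay inside loops less often. With both replicates' lists together, 26 of the 88 genes lay at an anchor, or 29.5% (21.0 to 39.8%), beside 22.5% of all protein-coding genes. The interval contains the background share. In replicate 1 alone 9 genes did, or 10.2%, beside a background of 6.67%, and in replicate 2 alone 21 did, or 23.9%, beside 19.8%. The ribosomal protein share was the higher in each replicate, and both shares were higher in replicate 2, whose list is longer. When any part of the gene body was counted, the share of ribosomal protein genes stayed at 29.5%, beside 30.01% of all genes.

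Gene length and surroundings differed between the groups, and their part in the counts was not tested. Ribosomal protein genes had a median length of 3.18 kb, beside 17.4 kb for all protein-coding genes. Among the 10527 protein-coding genes no longer than the longest ribosomal protein gene (16.8 kb), 17.3% had an end in an anchor. With the Olfr and Vmn receptor genes left out, 24.0% of the remaining 20060 protein-coding genes of any length did. Ribosomal protein genes had a median of 5 other protein-coding genes within 100 kb, beside 4 for all genes. With genes split into 4 bins by this number of neighbours, the shares of ribosomal protein genes at anchors were 36.8, 31.2, 30.4 and 23.3% from the fewest to the most neighbours, beside 24.4, 26.2, 22.1 and 17.2% of all genes. The ribosomal protein share was the higher in each bin, with intervals that contained the background share in all 4.

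**Figure D1:**
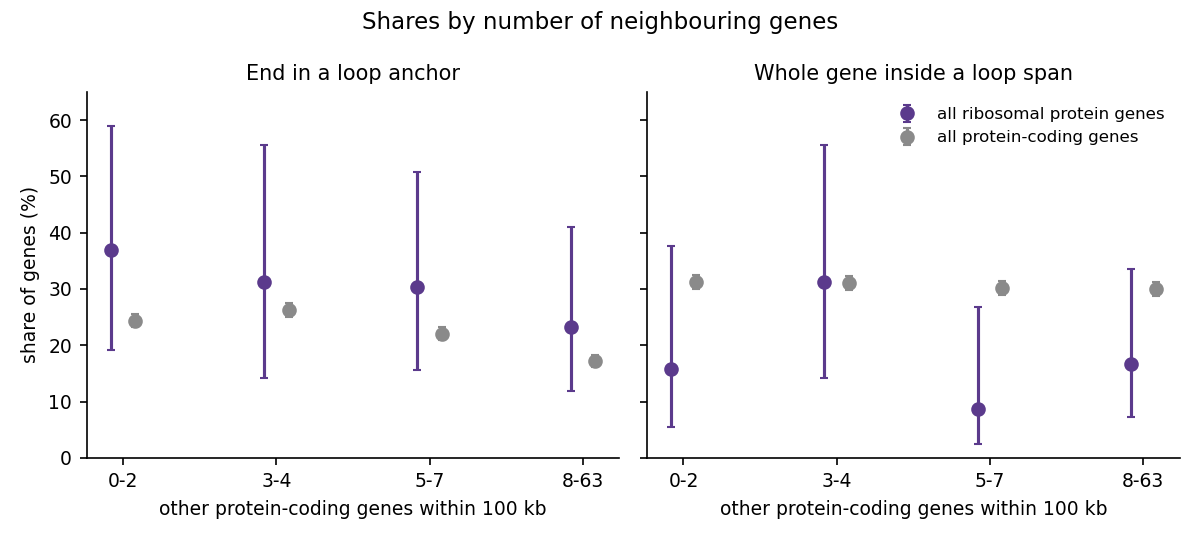
Share of genes (%) with an end in a loop anchor (left) and lying whole inside a loop span (right), by the number of other protein-coding genes within 100 kb. Purple points are ribosomal protein genes and grey points all protein-coding genes, with 95% Wilson intervals; at anchors the purple points run from 36.8% down to 23.3%, and every purple interval is wide.

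Large subunit genes lay at anchors in 18 of 54 cases, which is 33.3% (22.2 to 46.6%), and small subunit genes in 8 of 34, which is 23.5% (12.4 to 40.0%). The small subunit share was close to the background of 22.5%. The difference of 9.80 percentage points kept its direction in each replicate, with 13.0% of large and 5.88% of small subunit genes in replicate 1, and 27.8 and 17.6% in replicate 2. The interval of the difference (Newcombe, 95%) ran from -10.1 to 27.1 points, and no test was made, since genes are not replicates of a condition. With the core genes alone the shares were 34.8% of 46 large and 23.3% of 30 small subunit genes.

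**Figure D2:**
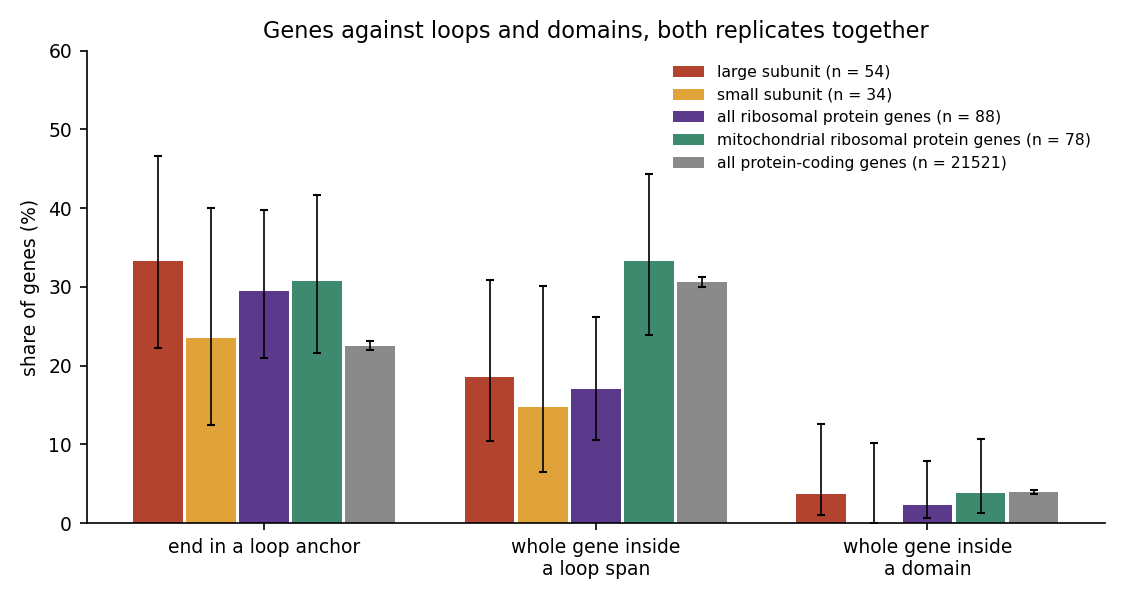
Share of genes (%) with an end in a loop anchor, lying whole inside a loop span and lying whole inside a domain, with the lists of both replicates together. Bars are large subunit, small subunit and all ribosomal protein genes, then mitochondrial ribosomal protein genes and all protein-coding genes, and error bars are 95% Wilson intervals; the 3 bars of cytosolic ribosomal protein genes lie below the grey bar for loop spans.

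Measured as a distance to the edge of the nearest anchor, ribosomal protein genes were nearer to anchors. The distance is 0 for a gene end inside an anchor, so it is not independent of the share at anchors. The nearer gene end lay a median of 9.81 kb from the nearest anchor (quartiles 0 and 42.5 kb), beside 27.2 kb for all protein-coding genes (1.30 and 135 kb). With the Olfr and Vmn receptor genes left out, the median of the remaining genes was 22.9 kb. The median was 6.61 kb for large and 12.1 kb for small subunit genes, so both subunits lay nearer than the background. In replicate 1 alone the medians were 267 kb for ribosomal protein genes and 387 kb for all genes, and in replicate 2 alone 12.3 and 29.2 kb. Of the 88 genes 67 lay within 50 kb of an anchor (76.1%), beside 59.7% of all genes. There were 14 genes more than 100 kb away (15.9%), beside 29.4% of all genes. Genes of related function also lay nearer than the background, so the nearness was not particular to this family. The median was 11.9 kb for mitochondrial ribosomal protein genes, with 76.9% within 50 kb and 14.1% more than 100 kb away. It was 17.0 kb for ribosome biogenesis genes and 17.7 kb for translation initiation and elongation factor genes.

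**Figure D3:**
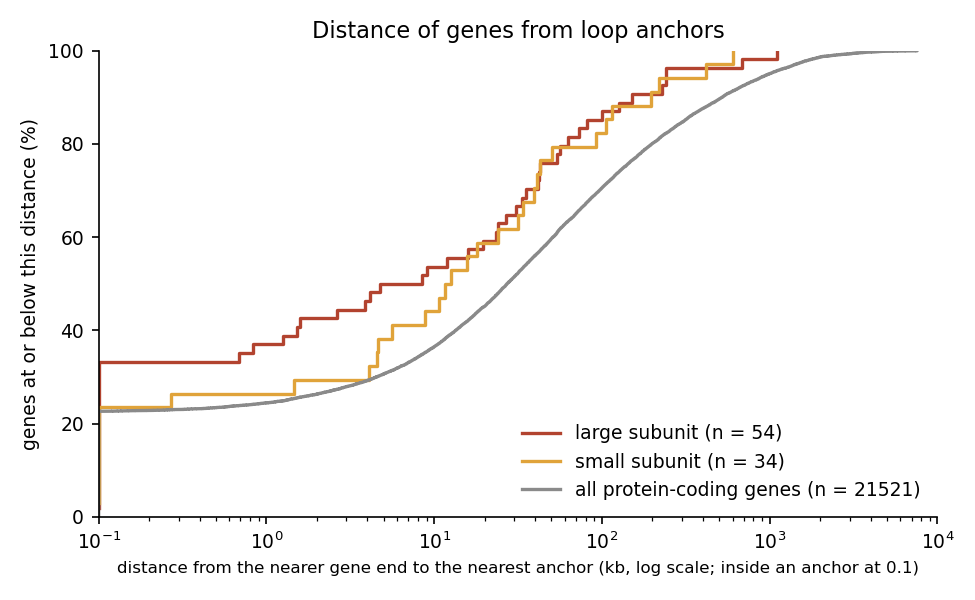
Cumulative share of genes (%) against the distance from the nearer gene end to the nearest anchor in kb on a log scale, with genes inside an anchor drawn at 0.1 kb. The large subunit line (red) starts at 33.3%, and both subunit lines lie above the grey line of all protein-coding genes over the range from about 10 kb to 100 kb.

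Among genes just outside an anchor, Rps23 lay 0.269 kb from the nearest, Rpl7a 0.686 kb and Rpl41 0.833 kb. Rpl41 encodes the shortest of the ribosomal proteins. These genes missed an anchor by less than the narrowest bin. The genes farthest from any anchor were Rpl10l at 1108 kb, Rpl39 at 683 kb, Rps24 at 603 kb, Rps9 at 418 kb and Rpl7l1 at 242 kb. Rpl10l is a retrogene copy of Rpl10 used in the male germ line, and had no other protein-coding gene within 100 kb. Rpl39 encodes a small protein in the wall of the exit tunnel, and had 5 such neighbours.

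Of the 26 genes at anchors, 4 were at an anchor in both replicates, 5 in replicate 1 alone and 17 in replicate 2 alone. As shares of the 26 these are 15.4, 19.2 and 65.4%, beside 17.6, 12.04 and 70.4% of all protein-coding genes at anchors, a split near the background. The 4 were Rpl3, Rpl5, Rpl6 and Rpl23, all large subunit genes. The genes took part in 33 distinct loops, 9 in replicate 1 and 24 in replicate 2, with spans of 50 to 1200 kb and a median of 135 kb, beside 150 kb for all loops. Of the replicate 1 loops 7 were shared (77.8%), beside 80.6% of all replicate 1 loops, and of the replicate 2 loops 3 were shared (12.5%), beside 18.2%. There were 0 loops that joined a ribosomal protein gene at both anchors. Both anchors held a protein-coding gene end in 17 of the 33 loops, or 51.5%, beside 28.9% of all loops that had a gene end at an anchor. The widest anchors, of 25 kb, made up 69.7% of the 33 loops, beside 58.8% of those loops. The part of anchor width in this share was not tested. Replicate 2 has most of the loops and thus most of the genes seen at anchors.

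**Figure D4:**
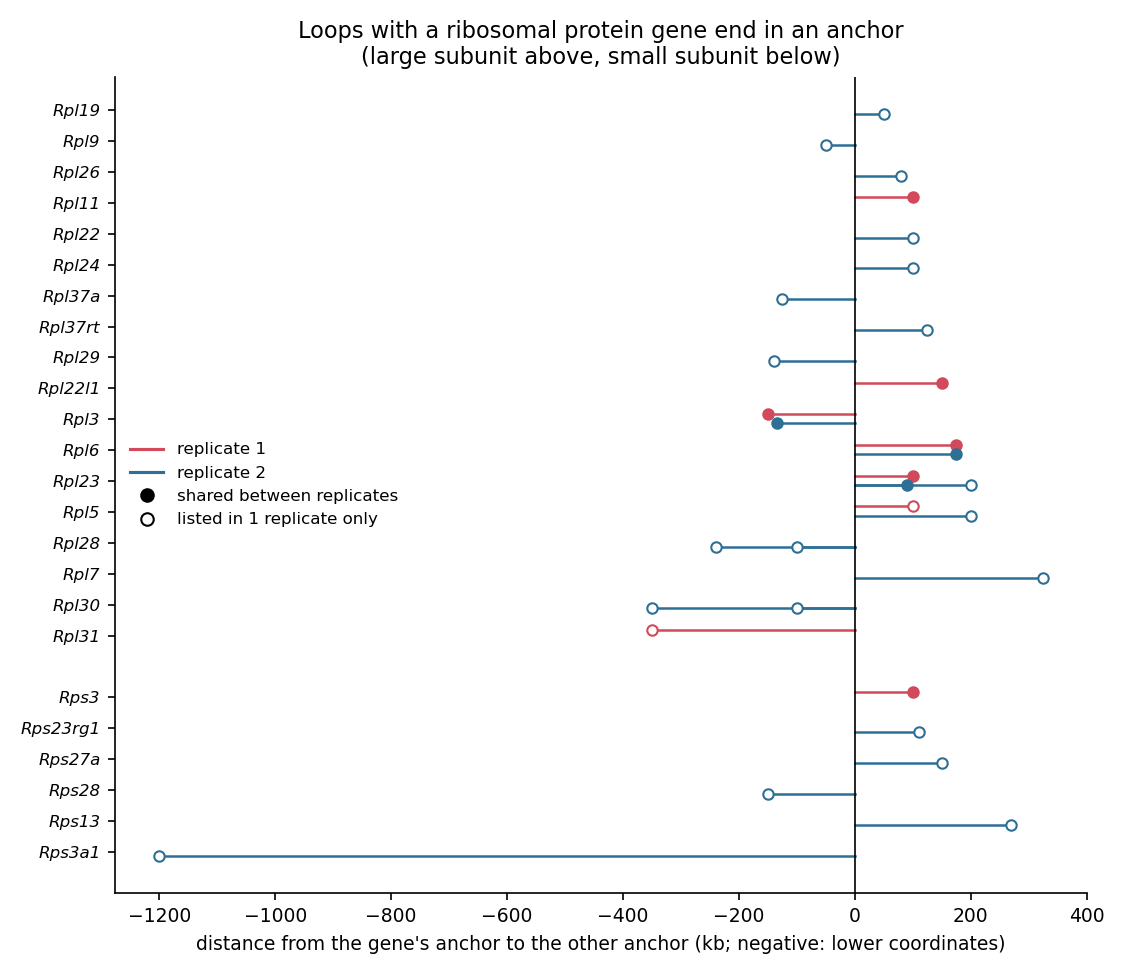
Loops with a ribosomal protein gene end in an anchor, drawn from the gene's anchor at 0 to the other anchor in kb, with lower coordinates to the left. Not all genes at anchors are drawn. Large subunit genes are above and small subunit genes below, red lines are replicate 1 and blue lines replicate 2, and filled circles are loops shared between replicates; all but the 1200 kb loop of Rps3a1 stay within 350 kb of the gene.

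Shared loops reached 7 ribosomal protein genes, or 7.95% (3.91 to 15.5%), beside 5.83% of all protein-coding genes, with 5 large subunit genes and 2 small subunit genes. Among them were Rpl3, Rpl6, Rpl11, Rpl22l1, Rpl23 and Rps3. The high-setting lists held 202 loops in replicate 1 and 3354 in replicate 2. These numbers equal those of the medium-list loops with 5 or 10 kb anchors. Of the 33 loops, all those with 5 or 10 kb anchors were also in the high lists, and none with 25 kb anchors was. Under the high setting 10 of the 88 genes were at an anchor (11.4%), beside 9.53% of all genes. At an anchor of a loop shared within that setting there were 0, beside 0.804% of all genes. The part of anchor width in these values was not tested.

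The promoter windows of 5 of these 7 genes are shown because a shared loop reaches these genes, and Rpl3 is named only. Each window runs from 60 bases before the annotated start through the first 30 bases of the transcript, 5′ to 3′ on the gene's strand, from RefSeq (GRCm38.p6). Capitals mark the ETS core CCGGAAG and the core letters of the zinc finger factor ZNF143.
Rpl11, chr4:136053364-136053453, minus strand: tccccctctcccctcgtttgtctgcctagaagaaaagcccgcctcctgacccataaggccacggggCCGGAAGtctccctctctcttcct
Rpl6, chr5:121204441-121204530, plus strand: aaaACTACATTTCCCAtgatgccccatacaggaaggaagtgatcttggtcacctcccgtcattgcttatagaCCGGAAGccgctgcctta
Rps3, chr7:99483680-99483769, minus strand: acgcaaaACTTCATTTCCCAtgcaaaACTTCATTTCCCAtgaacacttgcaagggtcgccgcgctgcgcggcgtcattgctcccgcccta
Rpl22l1, chr3:28805448-28805537, plus strand: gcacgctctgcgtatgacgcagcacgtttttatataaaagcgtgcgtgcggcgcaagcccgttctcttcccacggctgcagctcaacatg
Rpl23, chr11:97782410-97782499, minus strand: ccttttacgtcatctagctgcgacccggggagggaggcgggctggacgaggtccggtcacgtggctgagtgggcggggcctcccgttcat
Rpl11 and Rpl6 each hold an ETS core just after the annotated start, at positions 7 and 13 counted from 1 at the start. Rpl6 and Rps3 hold the ZNF143 letters upstream, at position -57 in Rpl6 and at 2 places in Rps3. Rpl22l1 and Rpl23 hold neither in this window.

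Rpl3, which encodes a protein near the peptidyl transferase centre of the large subunit, occupies 80077781 to 80083406 on chromosome 15. In replicate 1 it lay in the anchor 80075001 to 80099999, joined over 150 kb to 79925001 to 79949999. In replicate 2 its left end lay in the 5 kb anchor 80075001 to 80079999, joined over 135 kb to 79940001 to 79944999. No protein-coding gene ended in the far anchor in either replicate. The narrower replicate 2 anchor held no gene end but that of Rpl3.

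Rpl6, a large subunit gene at 121204501 to 121209241 on chromosome 5, had the same loop in both replicates. It joined 121200001 to 121224999, which also held an end of Hectd4, to 121375001 to 121399999, which held ends of Trafd1 and Naa25, over 175 kb. This was the only ribosomal protein gene with identical anchors in both lists.

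Rpl23, at 97777526 to 97782439 on chromosome 11, was joined in replicate 1 over 100 kb from 97775001 to 97799999 to 97875001 to 97899999, where Fbxo47 had an end. In replicate 2 a 90 kb loop matching it linked 97780001 to 97789999, where only Rpl23 ended, to 97870001 to 97879999. A second replicate 2 loop ran 200 kb from the wider anchor to 97975001 to 97999999, at Plxdc1 and Arl5c. Rpl19, a neighbouring large subunit gene at 98022003 to 98030493, had its own replicate 2 loop of 50 kb to 98070001 to 98079999 and shared no loop with Rpl23.

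The shared loops of Rpl11, Rpl22l1 and Rps3 touched the gene itself in replicate 1 only. Rpl11, at 136049354 to 136053393 on chromosome 4, had its start in the replicate 1 anchor 136050001 to 136074999, joined over 100 kb to an anchor at 136150001 to 136174999 with an end of E2f2, a cell cycle transcription factor gene. The replicate 2 partner joined 136070001 to 136074999 to 136150001 to 136154999, and its near anchor lay 16.6 kb from Rpl11. Rpl22l1, a paralogue of Rpl22 at 28805508 to 28807424 on chromosome 3, had a loop of 150 kb between the anchors 28800001 to 28824999 and 28950001 to 28974999, and the replicate 2 anchor lay 2.58 kb away. Rps3, which lines the entry of the messenger RNA channel, lies at 99477896 to 99483709 on chromosome 7 and had a loop of 100 kb between the anchors 99475001 to 99499999 and 99575001 to 99599999. Its replicate 2 partner of 110 kb lay 6.29 kb from the gene and ended at Arrb1. The 25 kb anchors of replicate 1 held both ends of Rpl22l1 and of Rps3 but only the start of Rpl11. The narrower replicate 2 anchors held no end of these genes.

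Rpl5 and Rpl11 encode the proteins that carry 5S ribosomal RNA into the large subunit and, when left free, bind the p53 regulator Mdm2. Rpl5, at 107900508 to 107909005 on chromosome 5, lay in the same anchor, 107900001 to 107924999, in both replicates, but the loops went to different places. The replicate 1 loop of 100 kb ended at 108000001 to 108024999, with no gene end, and the replicate 2 loop of 200 kb at 108100001 to 108124999, with ends of Mtf2 and Tmed5. Neither loop was shared.

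Proteins around the exit of the nascent chain are encoded by Rpl17, Rpl19, Rpl22, Rpl23a, Rpl26, Rpl31, Rpl35 and Rpl39, of which 4 of 8 lay at anchors (21.5 to 78.5%), beside 22.5% of all genes, all in 1 replicate only. Rpl26 had a replicate 2 loop of 80 kb from 68900001 to 68909999 on chromosome 11 to Pfas, a purine synthesis gene, at 68980001 to 68989999. Rpl22 had a replicate 2 loop of 100 kb on chromosome 4, from 152325001 to 152349999, with an end of Chd5 in the same anchor, to 152425001 to 152449999. Rpl31 had a replicate 1 loop of 350 kb that was not shared, from 39350001 to 39374999 on chromosome 1 to 39000001 to 39024999. A longer replicate 1 loop of 500 kb started from that same left anchor, reached 39500001 to 39524999 and held Rpl31 inside, and its replicate 2 partner spanned 520 kb. Of the 4 stalk genes, Rplp0, Rplp1, Rplp2 and Rpl12, which recruit elongation factors, 0 lay at an anchor (Wilson upper bound 49.0%). The nearest was Rplp0, at 19.5 kb. These groups were formed with the results known, and their counts are too small to compare.

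Further large subunit genes had loops in replicate 2 alone. Rpl28 on chromosome 7 had loops of 100 and 240 kb, both toward lower coordinates, from 4775001 to 4799999 to an anchor at Hspbp1 and Brsk1 (4675001 to 4699999), and from 4790001 to 4799999 to 4550001 to 4559999. Rpl30 on chromosome 15 had loops of 100 and 350 kb from 34425001 to 34449999, to 34325001 to 34349999 and to 34075001 to 34099999, where Mtdh had an end. Rpl9 was joined over 50 kb from 65380001 to 65389999 on chromosome 5 to 65330001 to 65339999 at Rfc1, which encodes the large subunit of the clamp loader of DNA replication. Rpl24 was joined over 100 kb from 55950001 to 55974999 on chromosome 16 to 56050001 to 56074999 at Senp7, a SUMO protease gene. Rpl37rt, a copy of Rpl37, was joined over 125 kb from 115100001 to 115124999 on chromosome 5 to 115225001 to 115249999 at Pop5 and Rnf10. The far anchors of the other 3 held no protein-coding gene end. Rpl7 was joined over 325 kb from 16100001 to 16124999 on chromosome 1 to 16425001 to 16449999. Rpl37a was joined over 125 kb from 72700001 to 72724999 on chromosome 1 to 72575001 to 72599999. Rpl29 was joined over 140 kb from 106420001 to 106429999 on chromosome 9 to 106280001 to 106289999.

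Small subunit genes with loops in replicate 2 alone numbered 6. Rps27a, whose product is made as a fusion with ubiquitin, was joined over 150 kb from 29540001 to 29549999 on chromosome 11 to 29690001 to 29699999 at Rtn4. Rps23rg1 was joined over 110 kb from 3560001 to 3569999 on chromosome 8 to 3670001 to 3679999 at Fcor and Trappc5. The loops of Rps28, Rps13 and Rps3a1 ended where no protein-coding gene did. Rps28 was joined over 150 kb from 33800001 to 33824999 on chromosome 17 to 33650001 to 33674999. Rps13 was joined over 270 kb from 116330001 to 116339999 on chromosome 7 to 116600001 to 116609999. The longest loop of the family, 1200 kb, joined Rps3a1 from 86125001 to 86149999 on chromosome 3 to 84925001 to 84949999.

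Most of these anchors were not exclusive to the ribosomal protein gene. For 20 of the 26 genes another protein-coding gene also ended in an anchor of theirs (76.9%), beside 49.9% of all genes at anchors, as with Rps27a between Mtif2 and Clhc1, or Rpl37rt beside Acads and Unc119b. The part of anchor width and gene density in this share was not tested. The exceptions, alone in each anchor of theirs, were Rpl11, Rpl22l1, Rpl26, Rpl29, Rps3 and Rps23rg1. Which of the genes in an anchor the contact involves cannot be told from a list of bins.

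Strand was known for 68 of the 88 genes. Their 24 gene and loop pairs ran downstream of the gene in 13 cases (54.2%) and upstream in 11, beside 52.1% downstream for all genes with a known strand. The annotated start itself lay in the anchor in 22 of the 24 pairs, or 91.7%, beside 58.2% for all genes. Ribosomal protein genes are short, with a median of 3.18 kb beside 17.4 kb, and anchors are up to 25 kb wide. A short gene can thus lie whole in an anchor, and the part of gene length in this share was not tested. Counted by the start alone, 17 of 68 ribosomal protein genes were at an anchor (25%), beside 14.2% of all genes with a known start. Large subunit genes gave 12 of 42 and small subunit genes 5 of 26.

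Fewer ribosomal protein genes than genes in general lay inside a loop. There were 15 of 88, or 17.0% (10.6 to 26.2%), beside a background of 30.6%. The share was 3.41% in replicate 1, beside 7.52% of all genes, and 15.9% in replicate 2, beside 30.04%. Among genes no longer than the longest ribosomal protein gene, which are longer than the family at a median of 5.71 kb, it was 31.4%. Under the high setting 10 of 88 lay inside a loop, or 11.4% (6.29 to 19.7%), beside 15.2% of all genes, a smaller gap whose interval contains the background. The part of anchor width in this smaller gap was not tested. Among genes with 3 to 4 neighbours the share was 31.2%, beside 31.0%, and in the other bins of neighbour number it was 15.8, 8.70 and 16.7%, beside 31.3, 30.1 and 30%. The intervals contained the background share in every bin but that with 5 to 7 neighbours (2.42 to 26.8%). Large subunit genes were inside a loop in 10 of 54 cases (18.5%) and small subunit genes in 5 of 34 (14.7%), a difference within either interval. When the gene had to lie between the inner edges of the anchors, the count was 9, or 10.2%, beside 27.0% of all genes.

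Of the 15 genes inside loops, 7 also had an end in an anchor, and 8 did not (9.09% of the 88, beside 20.3% of all genes). Rpl21 lay inside the most, 3 loops, with shared loops of 200 kb in both replicates from 146700001 to 146724999 to 146900001 to 146924999 on chromosome 5 in replicate 1. Rpl31 lay inside the shared loops of 500 and 520 kb described above. Every other gene lay inside 1 loop. Rpl13a, on chromosome 7, lay inside a replicate 2 loop of 60 kb. Its anchors held Nosip at 45070001 to 45079999 and Flt3l, the gene of a cytokine of early blood progenitors, at 45130001 to 45139999. Rpl15 lay inside a 70 kb loop on chromosome 14 with Nkiras1 and Ube2e1 at its right anchor. Rpl14, Rpl32l, Rps20 and Rpl4 lay inside loops of 90, 100, 320 and 550 kb. In all, 54 of the 88 genes (61.4%) were neither at an anchor nor inside a loop, beside 57.1% of all genes.

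Domains held few genes of any kind. The 2 ribosomal protein genes inside a domain were Rpl29 and Rpl30, both of the large subunit, which is 2.27% (0.625 to 7.91%), beside 3.98% of all protein-coding genes. No small subunit gene lay inside a domain, with an upper limit of 10.2%. Both domains were listed in replicate 2. That of Rpl29 ran from 106160001 to 106475000 on chromosome 9 (315 kb) and held 13 genes, among them Tlr9, a DNA sensor gene, and Alas1, the first enzyme of haem synthesis outside red cells. That of Rpl30 ran from 34010001 to 34450000 on chromosome 15 (440 kb) and held 6 genes, with Rpl30 6.72 kb from its right boundary. A gene end within 10 kb of a domain boundary was found for 2 ribosomal protein genes, Rpl30 and Rps19bp1 (2.27%), beside 2.05% of all genes, a share at the background.

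Ribosomal protein promoters differed in letters from promoters in general. The promoter table held a window from 250 bases before to 50 after the start for 68 of the 88 genes and 17274 protein-coding genes. The ETS core CCGGAAG, searched on both strands, was in 24 of 68 windows (35.3%, 25 to 47.2%), beside 12.1% of all windows. It was in 14 of 42 large and 10 of 26 small subunit windows. Genes at anchors had it in 6 of 19 cases (31.6%) and genes away from anchors in 18 of 49 (36.7%). Base composition was close, with a median GC content of 57.0%, beside 56.3%. AAGATGGCG, the core letters of Yy1, was in 4 windows (5.88%), beside 1.92%. The ZNF143 core, whose letters were chosen after the Rpl6 and Rps3 sequences had been seen, was in those 2 windows (2.94%), beside 1.40%. The core of the loop-anchoring factor CTCF was in 0 of 68 windows (upper limit 5.35%), beside 1.46%. All were searched on both strands, and a match describes letters, not binding.

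Transcripts of ribosomal protein genes are known to start with a C followed by pyrimidines, the terminal oligopyrimidine tract through which growth signals control their translation. At the annotated start, a C followed by 4 more pyrimidines was present in 14 of 68 genes (20.6%, 12.7 to 31.6%), beside 2.19% of all genes. A run of at least 8 pyrimidines from 20 bases before to 30 after the start was present in 33 (48.5%), beside 18.4%. The first 20 bases are shown for 4 genes with the tract exactly at the annotated start, with the tract in capitals.
Rpl15, chr14:18270967-18270986, minus strand: CTTCCTTTCCTCTggcggca
Rpl35, chr2:39005112-39005131, minus strand: CTCTTTCTCTCgaaccaggc
Rps6, chr4:86857348-86857367, minus strand: CTCTTTTTCgtgacgcctcc
Rpl28, chr7:4792965-4792984, plus strand: CTCTTTCCgtctccggccgc
Among genes at anchors only Rpl28 had it, or 1 of 19, and among the others 13 of 49 did. An annotated start can lie some bases from the start used by the cell, so absence at that base is not absence of the tract.

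**Figure D5:**
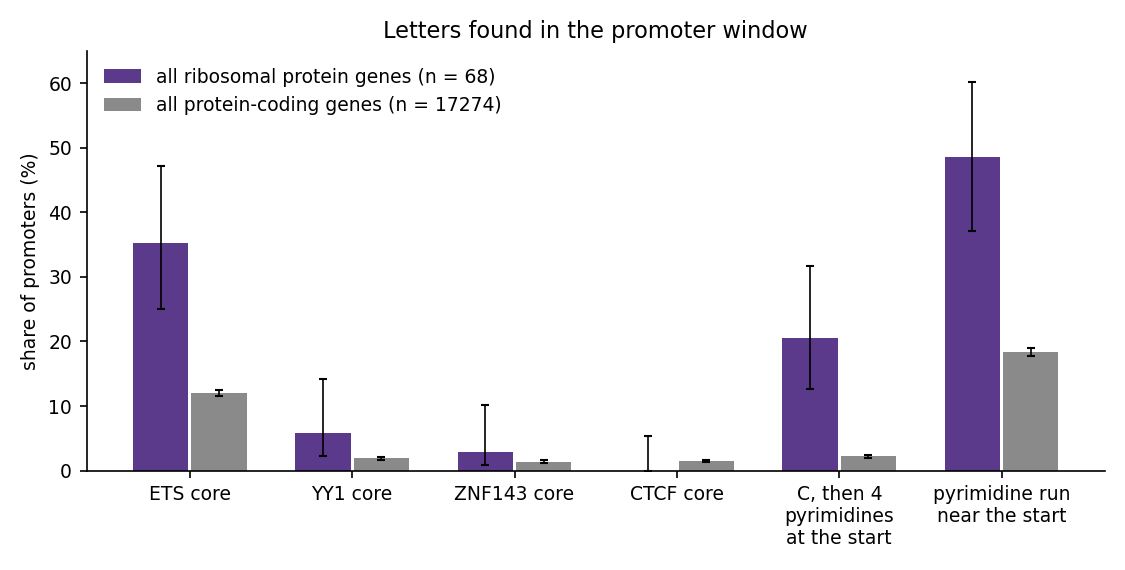
Share of promoters (%) that hold each feature, for 68 ribosomal protein genes (purple) and 17274 protein-coding genes (grey), with 95% Wilson intervals. The purple bars are the higher for the ETS core (35.3%), the C and pyrimidine start (20.6%) and the pyrimidine run (48.5%), and the CTCF core is at 0 in them.

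Many ribosomal protein genes carry small nucleolar RNA genes in their introns, which guide the modification of ribosomal RNA. Such a gene lay inside 29 of the 88 (32.95%), 56 in all, beside 1.71% of protein-coding genes. Rpl4 held 5, and Rpl7a and Rpl13a held 4 each. The host genes lay at an anchor in 8 of 29 cases (27.6%) and the other ribosomal protein genes in 18 of 59 (30.5%), shares close to each other.

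Genes of related function were read in the same way. Mitochondrial ribosomal protein genes lay at anchors in 24 of 78 cases (30.8%), a share near that of the cytosolic genes, and inside loops in 26 (33.3%), near the background of 30.6% and above the 17.0% of the cytosolic genes. Translation initiation and elongation factor genes lay at anchors in 14 of 70 cases (20%) and inside loops in 15 (21.4%). Ribosome biogenesis genes lay at anchors in 8 of 26 cases (30.8%) and inside loops in 5 (19.2%), with Fbl, the methyltransferase of small nucleolar RNPs, and Ncl, nucleolin, among those at anchors. No test was made between these lists. Among genes of ribosomal or ribosome-bound proteins with other names, Rack1, Fau and Rpsa lay 10.4, 37.9 and 42.6 kb from an anchor.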

How the data were processed

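Hi-C was run on 2 replicates of HPC5 cells with the Arima kit, per the labels' protocols. HiC-Pro 2.11.1 and the mm10 build are listed in the submitters' processing notes. The loop and domain caller is not given in the sources used here. The deposited lists, made by the authors per replicate, give positions with tags (n, qBL, rank and score) that the files do not define and that were not used.

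Gene positions are those of RefSeq's GRCm38.p6 table. Strand and starts came from its promoter table, which held 68 of the 88 genes, using the start nearest the 5′ end of the gene. Loop positions were kept, and a base was added to domain starts so that they count from 1. Positions were compared in Python 3.11.15 with pandas 2.3.3, and intervals came from statsmodels 0.14.6. The position measures were checked against direct enumeration. With 1 group and no control, no test was made, and n is 2 lists. Contact matrices were not analysed here.

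Members and gene lists were chosen with earlier results of these data known. Named are members at an anchor, members in domains, the 5 farthest from an anchor and up to 5 inside the most loops. Others, including those just outside an anchor and in the sequence sections, were chosen after their values were seen. Some genes that the rule names are not reported here. Alternatives were the high setting, each replicate alone, other distances, gene bodies, gene starts, core genes, autosomes, inner anchor edges and other matching distances.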

Additional observations from a re-analysis of the deposited data

How the results depend on the processing

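Of 43 alternative values 32 stayed within a 95% interval of the reported value without a change of sign. Another 10 fell outside the interval, and 1 changed sign within it. The intervals were Wilson's for shares, Newcombe's for subunit differences and one from ranked values for the median distance (3.86 to 23.9 kb). Leaving out each replicate gave 10.2 to 23.9% of ribosomal protein genes at an anchor, 3.41 to 15.9% inside a loop, 0 to 2.27% inside a domain and a median distance of 12.3 to 267 kb. The lower shares and the longer distance are those of the replicate 1 lists, which are shorter. Under the high setting the share at an anchor was 11.4%, the share at an anchor of a shared loop 0%, the share inside a loop 11.4% (beside 15.2% of all genes), the median distance 32.5 kb, and the large minus small subunit difference inside loops turned to -0.65 percentage points, with 6 of 54 large and 4 of 34 small subunit genes. The reported value was 3.81 points, with an interval of -13.6 to 18.6 points that contains the turned value. The high and medium lists differ in anchor widths, as given above, and the part of width in these changes was not tested. Counting ends within 5 or 10 kb gave 45.5 and 50% at an anchor, beside 30.6 and 36.5% of all genes. Inner anchor edges gave 10.2% inside a loop. The large minus small difference at anchors ran from 4.14 to 11.8 points over its alternatives. The lists hold no read totals, so what depth limits is unknown. No paired analysis was possible because the 2 replicates form a single group.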

Other observations

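Named pseudogenes of ribosomal protein genes, which carry copies of the coding sequence without the parent promoter, lay at anchors in 27 of 306 cases (8.82%, 6.13 to 12.5%), beside 7.39% of all 10228 pseudogenes and 29.5% of the 88 genes. They lay inside loops in 134 cases (43.8%), beside 32.5% of all pseudogenes and 17.0% of the genes. Their median distance from an anchor was 70.7 kb, beside 145 kb for all pseudogenes. They were short, with a median length of 0.53 kb, beside 0.93 kb for all pseudogenes and 3.18 kb for the 88 genes. The part of length or of the promoter in these shares was not tested. How reads from such near-identical copies were placed is not given in the sources used here.

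Mouse orthologues of 19 genes mutated in human Diamond-Blackfan anaemia were listed after the results were known. They lay at anchors in 6 cases (31.6%, 15.4 to 54.0%), beside 29.5% of all 88 ribosomal protein genes and 22.5% of all protein-coding genes. Among them were Rpl5, Rpl11, Rpl26, Rpl31 and Rps28. In replicate 1 alone 4 of the 19 were at an anchor (21.1%, 8.51 to 43.3%), beside 10.2% of the 88 genes and 6.67% of all genes. In replicate 2 alone the order was the other way, with 3 of the 19 (15.8%, 5.52 to 37.6%), beside 23.9% and 19.8%. Under the high setting 1 of the 19 was at an anchor (5.26%), beside 11.4% of the 88 genes and 9.53% of all genes. Rps19, the gene most often affected in patients, was not at an anchor.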
